A study of Mus musculus with 16 samples.

Results

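Ear skin exposed to both a high-fat diet (HFD) and the phorbol ester PMA was compared with ear skin exposed to neither. The 8 libraries were chosen by their titles from a series of 16: 4 from HFD mice whose ears had received PMA (HFD_PMA) and 4 from mice on a normal diet (ND) whose ears had been left untreated (ND_cont). All mice were of the B6 strain, an inbred laboratory line. The HFD had been given for 8 weeks, PMA was put on the ear at 200 ng, and ears were taken 24 h later. The sources used here do not give how long the ND was fed, the age and sex of the mice, the fat content of the diet, or whether the untreated ears received the solvent of PMA. With 4 mice per group in the study's design, each library stands for 1 mouse, so p-values measure the spread between these mice. The other 8 libraries, HFD without PMA (HFD_cont, 4) and ND with PMA (ND_PMA, 4), were used to estimate the spread and to set the joint exposure beside each exposure alone. Because diet and PMA differ together between the 2 main groups, their parts in a difference cannot be told apart within these 8 libraries. Of 48440 genes listed, 17604 had enough counts in the 16 libraries to be tested.

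PMA mimics diacylglycerol, a lipid messenger, and switches on protein kinase C. In keratinocytes this leads to the transcription factors AP-1 and NF-kB, to release of ligands of the epidermal growth factor (EGF) receptor, and within a day to cytokine production, leukocyte entry and epidermal thickening. Stressed keratinocytes replace part of their resting keratins by the wound keratins K6, K16 and K17 and make small proline-rich (SPRR) proteins, which are cross-linked into the cornified envelope of the outermost cells. A high-fat diet enlarges fat depots, including the fat layer under the dermis, and is known to change lipid handling and the inflammatory tone of skin. Mouse ear skin also holds hair follicles with sebaceous glands, dermis, a plate of cartilage and strands of skeletal muscle, all of which give RNA to a bulk library.

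The 8 libraries held 7739487 to 13126508 counts. Levels are given as CPM, the count of a gene scaled to a common library total by TMM. Before the TMM factor is applied, 1 CPM stood for 7.74 to 13.1 counts. On the principal component that took 23.8% of the variance of log2 CPM over all 16 libraries, the untreated ND libraries lay between -63.7 and -55.4 and the HFD libraries with PMA between 35.8 and 74.2. HFD without PMA lay between -33.8 and -6.79 and ND with PMA between 17.8 and 37.2, which overlaps HFD_PMA replicate 4. Pearson correlations of log2 CPM ran from 0.943 to 0.957 among the untreated ND libraries, from 0.926 to 0.943 among the HFD libraries with PMA, and from 0.876 to 0.921 between the groups. As a check for a library deposited under 2 names, no pair within a group agreed within sampling noise (chi-square per degree of freedom at least 9.40). The labels carry library IDs in 2 series, RHS and RHP, and the sources used here do not say what these mean. All 4 untreated ND libraries are RHS and all 4 HFD libraries with PMA are RHP, so within the 8 libraries this series and the exposures cannot be told apart. A fit over all 16 libraries with the series as a covariate was possible because HFD_cont holds both (replicate 1 is RHS and the other 3 are RHP). Its series term is thus HFD_cont replicate 1 against the other 3. What is particular to that library enters every fold change of that fit, so a call that lasts in it is not an independent check. The untreated ND replicate 4 was high for several wound and neutrophil genes, and HFD_PMA replicate 1 for hair shaft genes. Values without them are given where they moved a result by over 1.5 times.

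**Figure D1:**
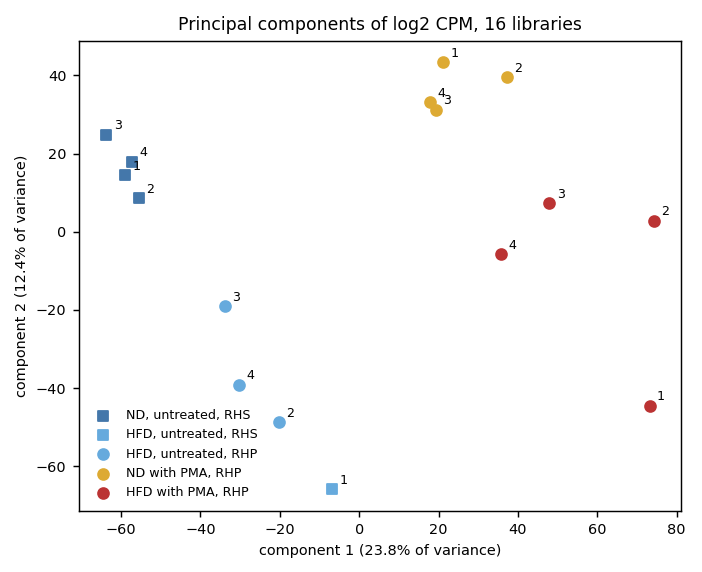
First (x axis) and second (y axis) principal components of log2 CPM for the 16 libraries, as scores in arbitrary units; colours mark the 4 groups, squares RHS and circles RHP library IDs, and digits the replicate. The untreated ND libraries lie at the left end of component 1, below -55, and the HFD libraries with PMA toward the right end, above 35, where 1 ND library with PMA also lies.

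Of the 17604 genes tested, 4535 (25.8%) differed between HFD skin with PMA and untreated ND skin by edgeR's quasi-likelihood test at a Benjamini-Hochberg (BH) adjusted p below 0.05. Of these 2542 (14.4%) were higher and 1993 (11.3%) lower, and 1899 differed by at least 2-fold (1074 higher, 825 lower). The median log2 fold change over all genes tested was -0.041, which is the value to read the medians of gene lists against. With the library ID series as a covariate 1239 genes were called (817 higher and 422 lower). Of these, 778 higher and 367 lower genes were also called, in that direction, without it. The 2542 higher genes took 19.7 ± 1.41% of all counts in untreated ND skin and 34.7 ± 2.34% in HFD skin with PMA (SD, n = 4), and the 1993 lower genes 24.8 ± 1.28% and 13.0 ± 1.10%. Below, a list's count is of its members that passed the filter on low counts and were tested. "Kept" counts the called members that were also called in that direction with the covariate, and a fold change is the edgeR log2 fold change ± SE with its BH-adjusted p over all 17604 genes. Over the 17604 genes tested, the groups did not overlap in 2569 genes that were higher with both exposures and in 2079 that were lower. The genes with the largest changes were named only where the groups did not overlap. For those genes the gap follows from the rule and is no further support, also where it is described below. Among them are Alox8, S100a8, Krt1, Krt14, Krt15, Krt16, Col17a1, Col1a1, Scd1 and Cyp2e1. In a bulk library, fewer cells of a type and less RNA per cell cannot be told apart.

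**Figure D2:**
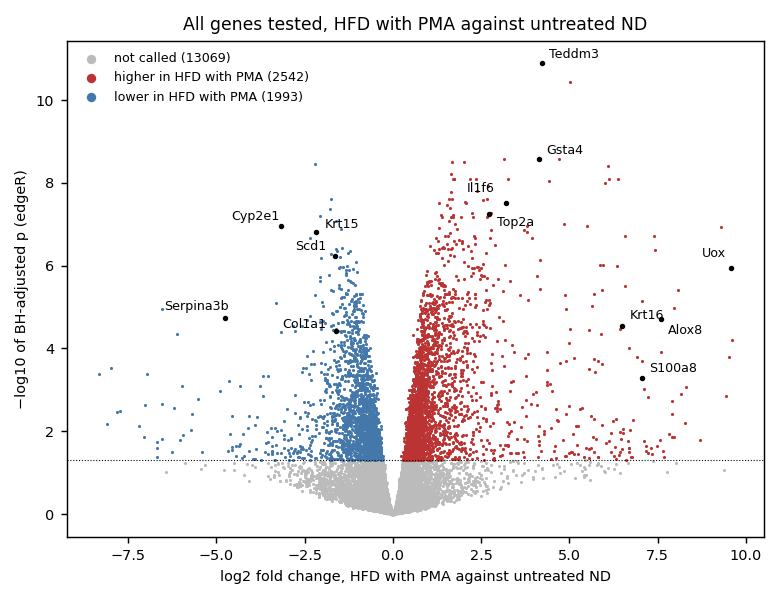
Log2 fold change between HFD skin with PMA and untreated ND skin (x axis) against −log10 of the BH-adjusted p (y axis) for the 17604 genes tested; the dotted line marks the adjusted p of 0.05. The 2542 higher genes reach further out than the 1993 lower ones, and the fitted fold of a gene near 0 in ND skin, such as Uox, depends on the fit's prior count.

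Promoters were searched for the consensus of AP-1, the factor through which PMA is best known to act. RefSeq windows of 250 bases before the start (GRCm38.p6) were matched by symbol, and 76 of the 99 genes called higher that the naming rule picked had one. The AP-1 motif TGAGTCA, on either strand, was in 8 of those 76 (Sprr2f, Sprr2e, Sprr2d, Mmp3, Plaur, Il1f8, Cd68 and Ndufa9). Over all promoters of that length it stood in 4.46% of 32851 windows, in 4.34% of those of genes called higher, 3.58% of those called lower and 3.75% of those not called. The stretches below are shown because these 5 genes rose and carry the motif. All are on the + strand of GRCm38.p6, and capitals mark TGAGTCA or its reverse complement TGACTCA. The motif begins 197 bases before the start of Sprr2f (chr3:92364960-92365026), 193 before those of Sprr2e (chr3:92351920-92351986) and Sprr2d (chr3:92338917-92338983), 46 before that of the protease gene Mmp3 (chr9:7445746-7445812), and 236 before that of the cytokine gene Il1f8 (chr2:24152922-24152972).
Sprr2f: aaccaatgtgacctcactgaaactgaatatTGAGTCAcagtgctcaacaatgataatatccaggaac
Sprr2e: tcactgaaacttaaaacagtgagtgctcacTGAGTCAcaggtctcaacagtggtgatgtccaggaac
Sprr2d: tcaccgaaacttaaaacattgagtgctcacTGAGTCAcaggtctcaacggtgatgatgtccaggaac
Mmp3: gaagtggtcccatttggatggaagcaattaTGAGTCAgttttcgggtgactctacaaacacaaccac
Il1f8: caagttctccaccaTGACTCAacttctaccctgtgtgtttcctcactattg

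The 3 Sprr2 stretches are alike on both sides of the motif, and the genes lie close together on chromosome 3. Other motifs searched, on both strands, were GGGA and TTCC spaced by 1 or 2 bases for NF-kB, TGACNNNGC for the antioxidant factor NRF2, which can overlap an AP-1 motif, and TATAAA. NF-kB motifs stood in 3.87% of windows of genes called higher, 2.52% of those lower and 3.03% of those not called. For NRF2 these shares were 12.9%, 9.59% and 12%, and for TATAAA 9.77%, 7.62% and 7.13%. A match is a description of the sequence only.

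Genes of the first steps of PMA signalling were called, in either direction, no more often than all genes 24 h after exposure. Over all genes 25.8% were called, 14.4% higher and 11.3% lower. Of 8 protein kinase C isoforms only Prkcd, a kinase that PMA activates directly, was called. It stood at 185, 189.6, 177 and 192 CPM in the 4 untreated ND libraries and at 133, 158, 152 and 147 CPM in the 4 HFD libraries with PMA. The groups did not overlap, the log2 fold change was small (-0.33 ± 0.10, adjusted p = 0.0145), and the call ended with the covariate, with no filter on low counts and without HFD_PMA replicate 1. Of 14 AP-1 and immediate early genes 3 rose and 0 fell (median 0.42), and 0 were kept. Junb, an AP-1 subunit, rose from 205, 179, 221 and 175 CPM to 358, 366, 357 and 282 CPM (0.80 ± 0.14, adjusted p = 0.000216). Every treated library was above every control, but the fold change fell to 0.44, adjusted p = 0.348 with the covariate. The survival gene Ier3 rose from 19.3 ± 5.37 CPM to 53.2 ± 6.78 CPM (1.46 ± 0.21, adjusted p = 3.21e-05). Fosl1, another AP-1 subunit, was called at 1.10 ± 0.38, adjusted p = 0.0394, with groups that did not overlap, but lost the call under 8 of 17 other settings, among them the covariate (-0.69, adjusted p = 0.624) and leaving out ND_cont replicates 2 or 4 or HFD_PMA replicates 2, 3 or 4. The immediate early genes Fos (log2 fold change 0.44, adjusted p = 0.541), Jun (-0.22, adjusted p = 0.383) and Egr1 (-0.014, adjusted p = 0.975) did not pass, and their groups overlapped. With the covariate the call of Ier3 (1.21, adjusted p = 0.0642) ended.

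Several ligands of the EGF receptor family, which drive keratinocyte growth and migration, were higher. Of 12 ligands and receptors 4 rose (Areg, Hbegf, Epgn, Nrg1) and 1 fell (Btc), 3 and 1 of which were kept, and the median over the list was -0.027. Epgn, the ligand epigen, stood at 0.494, 0.568, 0.288 and 1.12 CPM in untreated ND skin and at 36.7, 33.7, 16.9 and 24.4 CPM in HFD skin with PMA (5.49 ± 0.48, adjusted p = 1.12e-07). The 2 ranges were far apart. Hbegf, heparin-binding EGF, had 15.8, 8.04, 9.52 and 6.73 CPM and 57.4, 58.1, 59.1 and 52.4 CPM (2.51 ± 0.27, adjusted p = 1.65e-06). The treated libraries lay close together and all above the highest control. Nrg1, a ligand of the ERBB3 and ERBB4 receptors, rose as well (3.15 ± 0.55, adjusted p = 0.000267). Btc, betacellulin, went the other way, from 25.7 ± 3.99 CPM to 6.35 ± 4.33 CPM (-2.04 ± 0.45, adjusted p = 0.00217). The receptor gene Egfr itself was not called (-0.24, adjusted p = 0.168). The fit with the covariate gave 4.42 for Epgn and -3.78 for Btc.

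Epithelial cytokines of the IL-1 and IL-36 group, alarm signals that keratinocytes release when stressed, were higher in skin with both exposures where called, with few exceptions. Of 16 ligands, receptors and binding proteins 8 rose (Il1b, Il1rn, Il18, Il33, Il1f5, Il1f6, Il1f8, Il1f9) and 2 fell (Il1r2, Il18r1), with 5 and 0 kept and a median of 0.48. Il1f6 (IL-36 alpha, chr2:24215418-24225702 in GRCm38) stood at 10.98, 7.85, 4.71 and 5.50 CPM in untreated ND libraries and at 72.7, 52.5, 69.4 and 74.6 CPM in HFD libraries with PMA (3.22 ± 0.25, adjusted p = 3.11e-08). The lowest treated library was well above the highest control. Il1f9 (IL-36 gamma) had the highest level of the 3 IL-36 ligands in CPM per library, 71.6, 90.4, 74.97 and 63.3 against 263, 261, 220.2 and 216 (1.68 ± 0.13, adjusted p = 2.45e-08). Its groups did not overlap. Il1f8 (IL-36 beta), whose promoter stretch is shown above, rose less (1.23 ± 0.21, adjusted p = 0.000225; 1.07, adjusted p = 0.118 with the covariate). Fitted with the covariate, the log2 fold change was 3.89 for Il1f6.

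Il1b, the inflammasome-processed IL-1 beta made mainly by myeloid cells, had 5.68, 0.757, 0.577 and 0.898 CPM in the controls and 36.8, 57.5, 23.4 and 13.5 CPM with both exposures (4.10 ± 1.09, adjusted p = 0.0129). Control replicate 1 stood apart, and without it the log2 fold change was 5.45. The antagonist gene Il1rn rose too, from 158 ± 13.4 CPM to 348 ± 96.5 CPM (1.14 ± 0.15, adjusted p = 1.06e-05). Of 8 other inflammatory cytokines tested 5 rose (Tnf, Il19, Il24, Osm, Tslp), with 2 kept, and 11 more, among them Il6, Il17a, Il22 and Il23a, had too few counts to test. Without ND_cont replicate 3, or without HFD_PMA replicate 2, the number higher was 3. Il19, an IL-10 family cytokine of keratinocytes, had 0 counts in all 4 untreated ND libraries and 3.47, 6.12, 6.97 and 14.9 CPM in HFD libraries with PMA. Set against a floor of 3 counts over the group this is at least 92.98-fold higher, and for Il24, of the same family, at least 46.6-fold. Tslp, an epithelial cytokine of type 2 immunity, overlapped between groups (6.79, 4.35, 2.60 and 3.93 CPM against 7.99, 12.6, 5.56 and 15.9 CPM, 1.25 ± 0.37, adjusted p = 0.0174), and its fold change turned to -0.045, adjusted p = 0.984 with the covariate. The call also ended without ND_cont replicate 3, HFD_PMA replicate 2 or HFD_PMA replicate 4. Il19 missed the threshold with the covariate (adjusted p = 1). The log2 fold change with the covariate was 7.35 for Il1b.

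Genes of NF-kB subunits, cofactors and regulators were called in part. Of 15 members 4 rose (Nfkbia, Nfkbiz, Bcl3, Zc3h12a) and 0 fell, with 2 kept (median 0.29). Over all genes 14.4% were higher and 11.3% lower. Bcl3, a nuclear cofactor of NF-kB, rose from 5.18, 4.16, 2.50 and 5.16 CPM to 29.9, 33.3, 27.01 and 22.9 CPM (2.74 ± 0.25, adjusted p = 2.12e-07), with a wide gap between the groups. Zc3h12a, an RNase that destroys cytokine mRNAs, rose from 10.2 ± 2.77 CPM to 54.9 ± 10.5 CPM (2.43 ± 0.26, adjusted p = 1.10e-06). Nfkbiz, a cofactor for IL-17 target genes, rose at 1.53 ± 0.22, adjusted p = 2.76e-05, and 0.96, adjusted p = 0.148 with the covariate. Nfkbia, the inhibitor IkB alpha, was called at 0.70 ± 0.20, adjusted p = 0.0137 with overlapping groups, and lost the call with the covariate, without ND_cont replicate 4 and without HFD_PMA replicate 2.

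Chemokines that draw neutrophils rose in most cases: 7 of 9 tested genes were higher and 0 lower (median log2 fold change 4.15), with 4 kept. Cxcr2, the receptor by which neutrophils follow them, had 4.07, 5.77, 9.71 and 5.84 CPM in the controls and 47.8, 65.7, 52.1 and 25.1 CPM with both exposures (2.90 ± 0.28, adjusted p = 3.18e-07). No treated library came near the controls. Cxcl5, a neutrophil attractant of epithelium, was at 0 in 3 control libraries and at 1.68 CPM in replicate 4, against 20.2, 45.9, 14.95 and 7.27 CPM (5.74 ± 0.99, adjusted p = 0.000374). Its fold change with the covariate did not pass (3.48, adjusted p = 0.733), and without ND_cont replicate 4 the controls were all at 0. Without HFD_PMA replicate 2, the highest, it was 5.08. Cxcl2 (4.07 ± 0.91, adjusted p = 0.00233) and Ccl3 (4.37 ± 0.86, adjusted p = 0.000777) rose from between 0.0946 and 1.85 CPM and between 0.192 and 1.48 CPM to between 2.38 and 24.2 CPM and between 2.88 and 19.95 CPM, with HFD_PMA replicate 4 lowest for both. Without ND_cont replicate 1 their log2 fold changes were 4.99 and 5.19. Cxcl3, of the same family, had 0 counts in the controls and 2.79, 7.23, 0.626 and 0.627 CPM with both exposures, at least 38.5-fold higher against the same floor. Most of it came from HFD_PMA replicates 1 and 2, and the call ended with the covariate (adjusted p = 0.0528). With the covariate the log2 fold change was 5.58 for Cxcl2 and 8.60 for Ccl3.

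Of 20 other chemokines and receptors 11 rose and 1 fell (Ccl27a, a T cell attractant of resting keratinocytes), with 6 and 0 kept. The monocyte receptor gene Ccr2 rose from 19.3, 20.1, 18.3 and 15.5 CPM to 111, 111, 78.5 and 46.1 CPM (2.25 ± 0.24, adjusted p = 1.15e-06). The lowest treated library was well above the highest control. Ccr1, a receptor of neutrophils and monocytes, rose at 3.13 ± 0.43, adjusted p = 2.22e-05, and Ccl7, a ligand of Ccr2, at 2.13 ± 0.40, adjusted p = 0.000559 (1.60, adjusted p = 0.281 with the covariate). Ccl20, which draws cells that carry CCR6, was called at 2.80 ± 0.46, adjusted p = 0.000139 and missed the threshold with the covariate (adjusted p = 0.0538). The fit with the covariate gave 3.98 for Ccr1.

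Antimicrobial and acute phase genes were higher in most cases. Of 16 tested 12 rose and 1 fell (Wfdc21), 10 and 0 kept, with a median log2 fold change of 4.53. S100a8 (chr3:90668978-90670035), a calcium-binding alarmin of neutrophils and stressed keratinocytes, stood at 0.987, 0.757, 1.25 and 8.19 CPM in untreated ND skin and at 749, 380.4, 139 and 182 CPM in HFD skin with PMA (7.05 ± 1.11, adjusted p = 0.000515). Control replicate 4 was above the other controls and still below every treated library, and the log2 fold change was 8.49 without it and 6.43 without HFD_PMA replicate 1. Its partner S100a9 was highest in the same library of each group, 0.370, 0.568, 0.481 and 3.93 CPM against 366, 195, 64.9 and 77.99 CPM (7.06 ± 1.01, adjusted p = 0.000202; 8.48 without ND_cont replicate 4 and 6.43 without HFD_PMA replicate 1). Lcn2, the iron-binding lipocalin 2, was less spread, at 0.370, 1.14, 1.25 and 0.898 CPM and 62.5, 91.3, 56.1 and 47.9 CPM (6.09 ± 0.40, adjusted p = 3.87e-09). Chil1, a secreted chitinase-like protein, rose from 74.2 ± 19.3 CPM to 1941 ± 510.3 CPM (4.71 ± 0.28, adjusted p = 2.68e-09) and Slpi, a protease inhibitor of epithelia, from 1.57 ± 0.707 CPM to 101 ± 47.1 CPM (5.997 ± 0.44, adjusted p = 1.02e-08). Fitted with the covariate, the log2 fold change was 9.43 for S100a8, 9.02 for S100a9 and 7.45 for Slpi.

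S100a7a, a psoriasin relative, had 0, 0.189, 0 and 0.337 CPM in the controls and 46.6, 60.8, 12.8 and 23.4 CPM with both exposures (7.97 ± 0.99, adjusted p = 1.06e-05; 8.82 without ND_cont replicate 4). Saa3, a serum amyloid gene of macrophages and epithelium, was at 0 in 3 controls, at 0.449 CPM in replicate 4 and between 2.63 and 22.9 CPM in the treated libraries (adjusted p = 9.86e-05). Stfa1, a protease inhibitor of neutrophils, rose from 3 counts in all 4 controls together to 1060, a ratio of CPM of 307 (95% counting interval 105 to 1491), adjusted p = 3.78e-06. The 3 counts were all in ND_cont replicate 4. Of 8 tested markers of neutrophils 5 rose (Csf3r, Cxcr2, S100a8, S100a9, Hdc) and 0 fell, all 5 kept, and their summed level was 34.6 to 61.5 CPM in the untreated ND libraries and 339.5 to 1330.4 CPM in the HFD libraries with PMA. That list holds S100a8 and S100a9 themselves, and also Cxcr2 of the chemokine list above. Hdc is shared with the mast cell list, where it is the marker called higher. In a sum without S100a8 and S100a9, added after the data were seen, the ranges were 33.2 to 49.4 CPM and 79.9 to 247 CPM. The defining markers Ly6g, Ngp, Camp and Stfa2l1 had too few counts to test, and Mmp8, Mmp9 and Retnlg did not pass. The receptor gene Csf3r rose from 5.31, 1.42, 1.25 and 4.49 CPM to 46.99, 75.3, 31.2 and 19.4 CPM (3.82 ± 0.60, adjusted p = 0.000134). The part of neutrophil number in the rise of S100a8 and S100a9 was not tested. The log2 fold change with the covariate was 9.12 for S100a7a and 4.78 for Csf3r.

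Of 14 monocyte and macrophage markers 4 rose (Cd68, Ly6c2, Ccr2, Cd14), 1 fell (Csf1r) and the rest, among them Adgre1, Mrc1 and the C1q genes, did not pass. 2 and 0 were kept. Cd14, a receptor for bacterial lipopolysaccharide, was at 12.96, 6.91, 8.27 and 10.2 CPM in the controls and at 62.2, 85.1, 30.7 and 16.4 CPM with both exposures (2.35 ± 0.50, adjusted p = 0.00175). HFD_PMA replicate 4 was nearest to the controls. Csf1r, the growth factor receptor of resident macrophages, was called at -0.54 ± 0.18, adjusted p = 0.0272 with overlapping groups, and lost the call with the covariate and without ND_cont replicates 3 or 4 or HFD_PMA replicates 3 or 4. Cd300lf, an inhibitory receptor of myeloid cells, rose from 0.230 ± 0.318 CPM to 27.3 ± 16.4 CPM (6.92 ± 1.09, adjusted p = 0.000162; 8.40 without ND_cont replicate 4). Langerhans and dendritic cell markers (1 higher and 1 lower of 11), T and innate lymphoid markers (0 and 1 of 9) and mast cell markers (1 and 1 of 8) were called no more often than all genes. The Langerhans cell lectin gene Cd207 did not pass (-0.10, adjusted p = 0.797). With the covariate the log2 fold change was 3.11 for Cd14 and 8.85 for Cd300lf.

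Of 18 interferon-stimulated genes 4 rose (Oasl1, Oasl2, Oas1a, Rsad2) and 0 fell, against 14.4% higher over all genes, and 0 were kept. With the stricter filter on low counts 2 were called higher. Isg15, Mx1 and the Ifit genes did not pass.

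Enzymes that oxidise arachidonic acid moved in opposite directions: 4 of 14 rose (Alox8, Alox5ap, Ptgs2, Ptges), 4 fell (Alox5, Alox12, Alox12e, Aloxe3), 2 and 1 of them kept, and the median was 0.016. Alox8 (chr11:69183932-69197843), the 8-lipoxygenase of mouse skin that is known for its induction by phorbol esters, stood at 3.21, 4.35, 0.673 and 0 CPM in the controls and at 352, 357, 591 and 298 CPM with both exposures (7.59 ± 0.81, adjusted p = 1.97e-05). The treated libraries were all far above the controls, and without ND_cont replicate 2 the log2 fold change was 8.35. Ptges, which makes prostaglandin E2, had 102, 88.8, 115 and 109 CPM and 212, 213, 212 and 234 CPM (1.07 ± 0.12, adjusted p = 2.37e-06), again with no overlap. The inducible cyclooxygenase gene Ptgs2 overlapped between groups and was called near the threshold (1.74 ± 0.63, adjusted p = 0.046), losing the call under 9 of 17 other settings, among them the covariate and leaving out ND_cont replicates 2, 3 or 4 or HFD_PMA replicates 1 or 2. Without ND_cont replicates 3 or 4 or HFD_PMA replicate 2 the list had 2 genes called higher. Alox12e, an epidermal lipoxygenase, fell from 599, 632, 838 and 719 CPM to 152, 130.1, 325 and 451 CPM (-1.40 ± 0.30, adjusted p = 0.00244; -1.72, adjusted p = 0.107 with the covariate). Alox12b, needed for the lipid envelope of corneocytes, was not called (-0.016, adjusted p = 0.94).

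Wound genes of keratinocytes were higher throughout. All 21 tested genes of the list rose, 19 of them kept, with a median log2 fold change of 4.85, the highest of the 28 lists. Krt16 (chr11:100246091-100248902), a keratin of wounded and hyperproliferating epidermis, stood at 17.6, 13.4, 26.3 and 102 CPM in the untreated ND libraries and at 3725, 5306, 2745 and 2659 CPM in the HFD libraries with PMA (6.50 ± 0.72, adjusted p = 2.91e-05). Control replicate 4 was several fold above the other controls and far below the treated libraries, and without it the log2 fold change was 7.56. Krt6b (chr15:101676023-101680287), a partner of Krt16, showed the same pattern more strongly, with 2.96, 2.08, 3.94 and 110.3 CPM against 2809.6, 3889, 1297 and 1428 CPM (6.31 ± 1.39, adjusted p = 0.00512; 9.61 without ND_cont replicate 4). Krt6a (chr15:101689910-101694307) had 33.3, 43.9, 39.1 and 170.1 CPM and 2698, 3483, 1423 and 1481 CPM (4.99 ± 0.63, adjusted p = 7.40e-05; 5.87 without that library). Reads of Krt6a and Krt6b may be shared, as the genes are near-identical. Krt17 (chr11:100256217-100261029), already well expressed in resting hair follicles, rose from 682, 764, 663 and 459 CPM to 4552, 5547, 3597 and 2929.6 CPM (2.69 ± 0.20, adjusted p = 1.20e-08), and here control replicate 4 was the lowest. Krt6a, Krt6b, Krt16 and Krt17 together took 0.0807 ± 0.00640% of counts in untreated ND skin and 1.21 ± 0.439% in HFD skin with PMA (SD, n = 4). The fit with the covariate gave 7.50 for Krt16, 8.60 for Krt6b and 5.59 for Krt6a.

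Genes of small proline-rich proteins were near 0 in the controls. Sprr2d had 1.11, 0.568, 1.73 and 2.81 CPM there and 203, 226, 71.001 and 90.8 CPM with both exposures (6.58 ± 0.66, adjusted p = 3.16e-06). HFD_PMA replicates 1 and 2 were above replicates 3 and 4, and all were above the controls. Sprr2e was also highest in HFD_PMA replicates 1 and 2, and rose from 0.247, 0.0946, 0.288 and 0.224 CPM to 61.3, 49.7, 18.005 and 21.2 CPM (7.40 ± 0.68, adjusted p = 1.92e-07). Sprr2f rose from 1 count in all controls together to 1045, a CPM ratio of 908 (95% counting interval 163 to 35902), adjusted p = 1.18e-07. The single count was in ND_cont replicate 2. The Sprr2 genes are alike in sequence and their counts may be shared. The kallikrein protease gene Klk6 rose from 7.28, 17.6, 9.04 and 10.4 CPM to 379.8, 489.6, 277 and 301 CPM (5.02 ± 0.24, adjusted p = 3.59e-11), with little spread in either group. Gjb2, the gap junction protein connexin 26, rose from 37.95 ± 21.6 CPM to 541 ± 191 CPM (3.83 ± 0.41, adjusted p = 6.75e-06). Fitted with the covariate, the log2 fold change was 8.45 for Sprr2d, 8.08 for Sprr2e and 4.58 for Gjb2.

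Resting differentiation genes did not move together. Of 28 cornified envelope and suprabasal genes 10 rose, 6 fell and the rest did not pass, with 8 and 2 kept and a median of 0.076. Krt1, a keratin of suprabasal cells, had 477, 434, 821 and 657 CPM in untreated ND skin and 3545, 3066, 2835 and 2535 CPM in HFD skin with PMA (2.33 ± 0.22, adjusted p = 2.12e-07), the groups far apart. Its usual partner Krt10 was not called (4221, 4326, 4253 and 3863 CPM against 4293, 3733, 5586 and 5751 CPM, 0.22, adjusted p = 0.242), nor was loricrin, Lor (0.0011, adjusted p = 0.997). Rptn, repetin (3.04 ± 0.63, adjusted p = 0.00294), Lce3c, a late envelope protein of injured epidermis (3.60 ± 0.43, adjusted p = 5.00e-06), and Casp14, a caspase of filaggrin processing (1.75 ± 0.21, adjusted p = 4.91e-06), rose. The filaggrin relative Flg2 fell from 1021 ± 79.1 CPM to 353 ± 206 CPM (-1.53 ± 0.29, adjusted p = 0.000683), and missed the threshold with the covariate (adjusted p = 0.0523). The log2 fold change with the covariate was 4.82 for Rptn, 5.22 for Lce3c and 2.40 for Casp14.

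In the basal layer 4 of 14 genes rose (among them Krt5, Krt14 and Cdh3) and 4 fell (Krt15, Col17a1, Dst, Lamb3), 1 and 4 of them kept. Krt14, the main basal keratin, rose from 5619, 5921, 7396 and 4583 CPM to 13677, 16579, 12703 and 12369 CPM (1.23 ± 0.13, adjusted p = 1.39e-06), or from 0.605 ± 0.111% to 1.35 ± 0.179% of counts. Every treated library was above every control. Krt5, its partner, rose less (0.59 ± 0.12, adjusted p = 0.000755; 0.52, adjusted p = 0.192 with the covariate). Krt15 (chr11:100131758-100135928), a keratin of quiescent basal cells and hair follicle stem cells, fell from 5816, 5349, 4687 and 4333 CPM to 792, 815, 1132 and 1700.3 CPM (-2.19 ± 0.20, adjusted p = 1.51e-07). HFD_PMA replicate 4 was the highest treated library and still far below the lowest control. Col17a1, the hemidesmosome collagen that anchors basal cells, fell from 2572, 2652, 3180.2 and 3277 CPM to 1417, 1509, 1658 and 1878 CPM (-0.85 ± 0.11, adjusted p = 1.49e-05). For Krt14, Krt15 and Col17a1 the gap between groups follows from the naming rule and is no further support. The summed level of 9 keratinocyte markers was 18955 to 22986 CPM in the untreated ND libraries and 32728 to 35157 CPM in the HFD libraries with PMA, with no overlap, and 3 of the 9 were called higher (Krt5, Krt14, Krt1), all of them genes described above. The part of epidermal content in the rise of single epidermal genes was not tested.

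**Figure D3:**
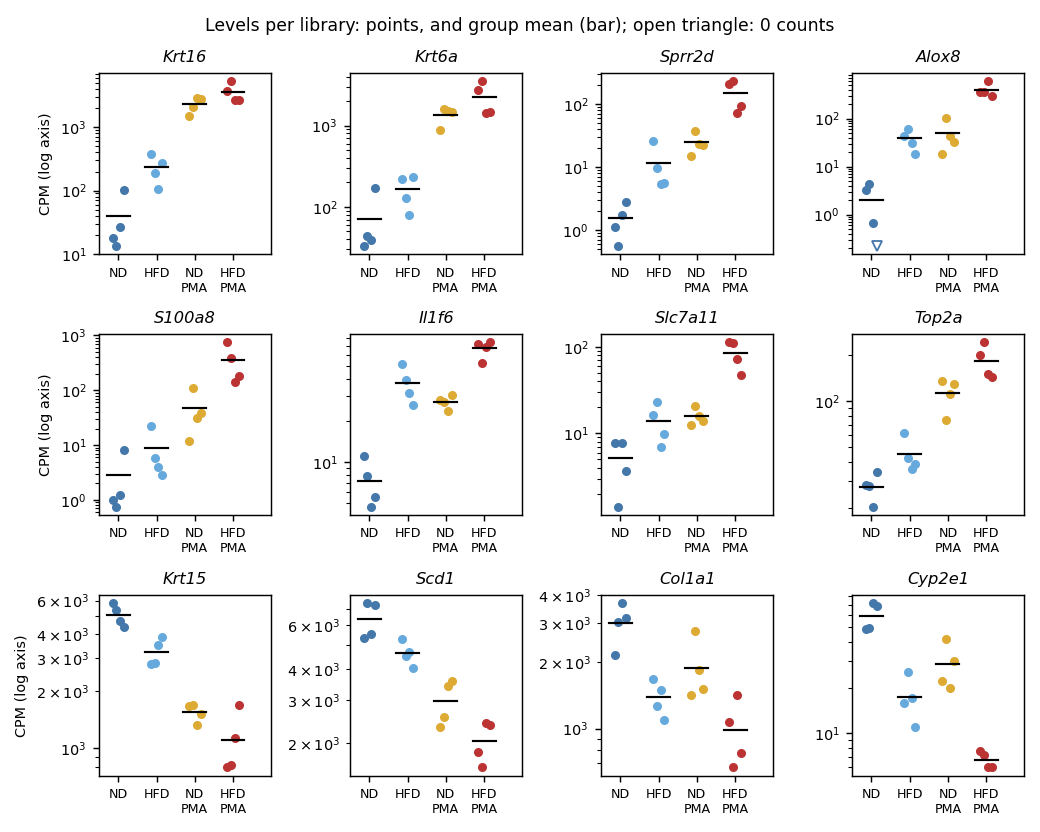
CPM per library on a log axis for 12 genes in untreated ND, untreated HFD, ND with PMA and HFD with PMA skin (4 libraries each; bars are group means, and an open triangle marks a library with 0 counts). Krt16, Krt6a, Sprr2d, Alox8, S100a8, Il1f6, Slc7a11 and Top2a are highest in HFD skin with PMA, and Krt15, Scd1, Col1a1 and Cyp2e1 highest in untreated ND skin.

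Cell cycle genes were higher as a whole. All 20 mitosis genes rose (18 kept, median 2.49), as did 19 of 20 DNA replication genes (15 kept, median 1.23). The exception was Fen1, which did not pass. Top2a (chr11:98992943-99024189), the topoisomerase of dividing cells, stood at 28.02, 27.6, 20.4 and 34.3 CPM in the controls and at 200.3, 242, 149 and 143 CPM with both exposures (2.74 ± 0.23, adjusted p = 5.59e-08). The lowest treated library was far above the highest control. Ube2c, a ubiquitin enzyme of mitotic exit, had 4.44, 2.65, 3.84 and 2.02 CPM and 24.9, 50.95, 18.7 and 22.9 CPM (3.18 ± 0.33, adjusted p = 9.43e-07), with HFD_PMA replicate 2 highest. Its exons overlap those of the muscle gene Tnnc2 on the other strand, and the sources used here do not say whether counting used strand. Mki67, the proliferation marker Ki-67, rose from 43.02 ± 12.8 CPM to 168 ± 50.7 CPM (1.97 ± 0.31, adjusted p = 0.000116). Ccne1, the cyclin of the step into S phase, had 0.864, 5.20, 1.83 and 4.38 CPM and 24.6, 34.9, 35.8 and 27.5 CPM (3.31 ± 0.37, adjusted p = 2.37e-06). Rrm2, which makes deoxynucleotides, rose at 2.24 ± 0.18, adjusted p = 5.20e-08, the kinase gene Cdk1 at 2.66 ± 0.29, adjusted p = 1.96e-06, and Mcm5, of the replicative helicase, at 1.87 ± 0.24, adjusted p = 1.06e-05. With the covariate the log2 fold change was 3.40 for Top2a and 2.85 for Mki67.

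Of 19 endoplasmic reticulum chaperones and unfolded protein response genes 14 rose and 1 fell (Trib3), 10 and 0 kept (median 0.90). Calr, the chaperone calreticulin, had 90.7, 94.3, 111 and 99.3 CPM in untreated ND skin and 312, 363, 298 and 271 CPM in HFD skin with PMA (1.66 ± 0.11, adjusted p = 6.21e-09). The gap between the groups was wider than the spread within either. Hspa5, the chaperone BiP, rose from 458 ± 31.1 CPM to 874 ± 135 CPM (0.93 ± 0.12, adjusted p = 1.10e-05). The stress factors Ddit3, Xbp1 and Herpud1 did not pass. Of 20 ribosome biogenesis genes 15 rose and 0 fell, but 4 were kept. Npm1, the nucleolar protein nucleophosmin, was among those kept, at 148, 158, 116 and 102 CPM and 306, 378, 338 and 356 CPM (1.40 ± 0.16, adjusted p = 2.65e-06). Of 21 nuclear-encoded respiratory chain genes 9 rose and 0 fell, of which 1 was kept, Atp5o (0.99 ± 0.16, adjusted p = 0.000114). Mitochondrially encoded genes took 1.75 ± 0.309% of counts in the controls and 2.65 ± 0.317% with both exposures.

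Of 20 glycolysis and hypoxia genes 11 rose and 0 fell (9 kept, median 0.99). Skeletal muscle is rich in glycolytic enzymes, and its markers summed to 5029 to 13529 CPM in the controls and 3975 to 4849 CPM in the treated libraries. The part of tissue make-up in the glycolytic genes was not tested. Eno1, enolase 1, had 192, 194, 226 and 169 CPM and 647, 835, 597 and 488 CPM (1.72 ± 0.14, adjusted p = 6.61e-08), and Pgk1, another glycolytic enzyme, rose at 1.86 ± 0.17, adjusted p = 2.44e-07. In both cases the groups did not overlap. Ldha, lactate dehydrogenase A, rose from 892 ± 143 CPM to 2498 ± 501 CPM (1.49 ± 0.14, adjusted p = 1.92e-07). Car12, a membrane carbonic anhydrase, rose from 69.8 ± 10.3 CPM to 247 ± 35.4 CPM (1.82 ± 0.16, adjusted p = 1.27e-07).

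Targets of NRF2, the factor that answers oxidants, were called at 10 of 17 higher and 0 lower (5 kept, median 0.82). Slc7a11, the cystine importer that feeds glutathione synthesis, stood at 7.65, 1.42, 7.79 and 3.70 CPM in the controls and at 113, 109.9, 72.9 and 47.1 CPM with both exposures (4.07 ± 0.45, adjusted p = 1.76e-06). The lowest treated library was far above the highest control. Gsta4, a glutathione transferase that clears products of lipid peroxidation, had 5.43, 4.92, 4.13 and 7.63 CPM and 95.1, 137, 70.4 and 87.01 CPM (4.14 ± 0.26, adjusted p = 2.68e-09), with no overlap. Gpx2, an epithelial glutathione peroxidase (2.77 ± 0.57, adjusted p = 0.0012), and Akr1b8, an aldo-keto reductase (2.34 ± 0.30, adjusted p = 1.02e-05), rose as well. The classical targets Nqo1, Hmox1 and Txnrd1 did not pass (Hmox1 0.029, adjusted p = 0.912). The fit with the covariate gave 3.58 for Gpx2.

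**Figure D4:**
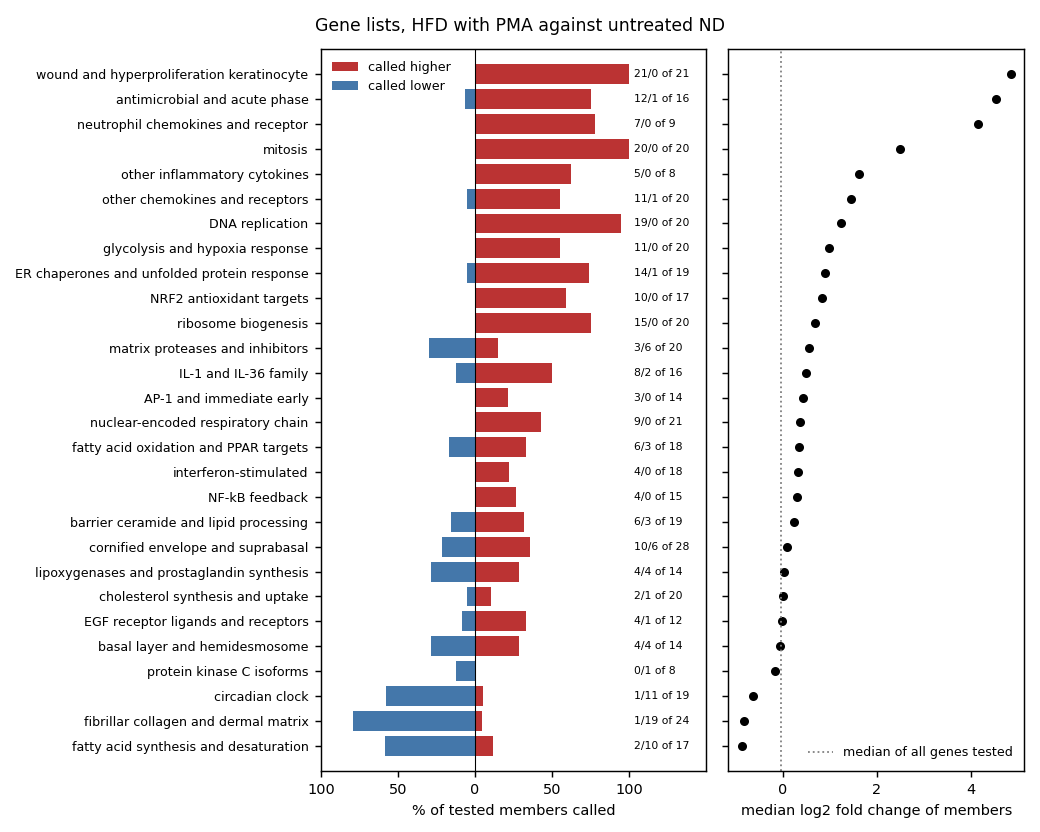
Left, the share of tested members of each of 28 gene lists called higher (red, to the right) or lower (blue, to the left) in HFD skin with PMA against untreated ND skin, in percent, with the counts as higher/lower of tested; right, the median log2 fold change of the members against that of all genes tested (dotted line at -0.041). Wound keratinocyte genes (21 of 21 higher) stand at the top, and fatty acid synthesis (10 of 17 lower) and dermal matrix (19 of 24 lower) at the bottom.

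Dermal matrix genes were lower in most cases. Of 24 members 19 fell and 1 rose (Postn, periostin of remodelling matrix), with a median of -0.83; 5 and 1 were kept. Col1a1 (chr11:94936224-94953042), which encodes a chain of the main dermal collagen, stood at 2146, 3019.5, 3683 and 3153 CPM in the untreated ND libraries and at 1069, 668, 1424 and 779 CPM in the HFD libraries with PMA (-1.61 ± 0.23, adjusted p = 3.82e-05). Its call ended with the covariate (-1.22, adjusted p = 0.121). Col1a2, the other chain, fell from 1513, 2025, 2159.7 and 2148 CPM to 693, 484, 887 and 656 CPM (-1.53 ± 0.18, adjusted p = 3.40e-06), and kept its call (-1.34, adjusted p = 0.0266). Col1a1, Col1a2 and Col3a1 together took 0.733 ± 0.132% of counts in the controls and 0.263 ± 0.0753% with both exposures (SD, n = 4). Fmod, fibromodulin of collagen fibrils, fell from 826 ± 247 CPM to 297 ± 85.4 CPM (-1.47 ± 0.23, adjusted p = 8.11e-05), and Eln, elastin, from 163 ± 48.3 CPM to 59.1 ± 9.61 CPM (-1.46 ± 0.18, adjusted p = 6.00e-06; -1.08, adjusted p = 0.0618 with the covariate). Gsn, the actin-severing protein gelsolin that fibroblasts and other dermal cells express, lost the most CPM among the genes that the naming rule admits, 10141, 9791, 15565 and 12181 against 4322, 3932, 5673 and 4986 (-1.33 ± 0.16, adjusted p = 4.91e-06). Of 8 fibroblast markers, 5 of them also members of the matrix list, 5 fell and 1 rose (Pdpn), 2 and 0 kept, and the general marker Pdgfra did not pass.

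Of 20 matrix proteases and their inhibitors 3 rose (Mmp3, Plaur, Timp1) and 6 fell (Mmp2, Mmp11, Mmp14, Timp2, Timp3, Timp4), 2 and 3 of them kept. The share that rose was near the 14.4% of all genes called higher, while 11.3% of all genes were called lower. Timp1, the inducible inhibitor of metalloproteases, had 2.22, 0.946, 1.25 and 3.37 CPM in the controls and 34.1, 34.3, 18.005 and 20.8 CPM with both exposures (3.80 ± 0.34, adjusted p = 1.51e-07). All treated libraries were above all controls. Timp3, a matrix-bound inhibitor, went the other way, from 865, 855, 1007 and 969.9 CPM to 417, 349.9, 451 and 564 CPM (-1.05 ± 0.13, adjusted p = 4.91e-06). Mmp3, stromelysin 1, whose promoter stretch is shown above, rose from 61.2, 61.96, 69.6 and 81.8 CPM to 307, 471, 199.8 and 165 CPM (2.06 ± 0.26, adjusted p = 8.77e-06). Plaur, the urokinase receptor, was called with overlapping groups (1.48 ± 0.41, adjusted p = 0.0105) and lost the call with the covariate and without HFD_PMA replicate 2. In the fit of the 8 libraries alone 5 genes of the list were higher. Fitted with the covariate, the log2 fold change was 2.81 for Mmp3.

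Of 17 genes of fatty acid synthesis and desaturation 10 fell and 2 rose (Elovl1, Elovl7), 4 and 0 kept, with a median of -0.88, the lowest of the 28 lists. Scd1 (chr19:44394455-44407879), the stearoyl-CoA desaturase of sebaceous glands, fell from 5349, 7376, 5518 and 7277 CPM to 1839, 1598, 2407 and 2370.1 CPM (-1.64 ± 0.16, adjusted p = 5.80e-07). The highest treated library was far below the lowest control. Scd3, a close relative whose reads may be shared with it, fell from 28.5 ± 5.16 CPM to 3.20 ± 2.10 CPM (-3.17 ± 0.46, adjusted p = 3.93e-05). Elovl5, an elongase of polyunsaturated fatty acids, had 228, 322, 228 and 272 CPM and 76.6, 74.3, 69.2 and 87.3 CPM (-1.77 ± 0.14, adjusted p = 4.29e-08), with tight groups that did not overlap. Fasn, fatty acid synthase, fell at -0.81 ± 0.14, adjusted p = 0.000152 and Thrsp, a lipogenic regulator of fat cells, at -1.67 ± 0.32, adjusted p = 0.000711. Both missed the threshold with the covariate (adjusted p = 0.228 and 0.0865). Of 7 sebocyte markers 4 fell and 0 rose (1 kept), among them Scd3, which the synthesis list also holds. The part of gland content in the lower Scd1 was not tested.

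Cholesterol synthesis did not move as a group: 2 of 20 genes rose and 1 fell, below the background share. Of 18 genes of fatty acid oxidation and PPAR targets 6 rose and 3 fell, none of them kept. The number higher was 1 with upper-quartile scaling or without HFD_PMA replicate 2, 2 without ND_cont replicate 1 or HFD_PMA replicate 4, and 3 without ND_cont replicates 2 or 4. Pdk4, a kinase that spares glucose and rises with fat supply, was among them at 1.12 ± 0.39, adjusted p = 0.0446. It lost the call under 11 of 17 other settings, among them DESeq2, upper-quartile scaling, no filter, the stricter filter, and leaving out ND_cont replicates 1, 2 or 4 or HFD_PMA replicates 2, 3 or 4, and turned to -0.73, adjusted p = 0.561 with the covariate. Of 19 genes of barrier ceramides 6 rose and 3 fell (4 and 1 kept). Fa2h, which hydroxylates ceramide fatty acids, fell from 770.4, 1074, 843 and 744 CPM to 190.2, 202, 311 and 354 CPM (-1.70 ± 0.20, adjusted p = 4.13e-06). Degs2, which makes phytoceramide, rose from 22.1 ± 9.66 CPM to 68.2 ± 9.90 CPM (1.62 ± 0.25, adjusted p = 7.34e-05). The log2 fold change with the covariate was 2.28 for Degs2.

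Among the largest decreases that the naming rule picked were 3 cytochrome P450 genes, Cyp2e1, Cyp2b23 and Cyp2j8. Cyp2e1 (chr7:140763739-140774987), a cytochrome P450 that oxidises ethanol and fatty acids, stood at 48.3, 49.3, 71.9 and 69.01 CPM in untreated ND skin and at 7.61, 7.15, 5.95 and 6.02 CPM in HFD skin with PMA (-3.15 ± 0.28, adjusted p = 1.07e-07). The treated libraries were alike and far below the controls. Cyp2b23, another cytochrome P450, fell from 56.6 ± 31.2 CPM to 5.14 ± 5.78 CPM (-3.52 ± 0.62, adjusted p = 0.000458; -4.64 without HFD_PMA replicate 4). Cyp2j8 fell from 8.94 ± 4.47 CPM to 1.68 ± 0.602 CPM (-2.42 ± 0.59, adjusted p = 0.00438). Paqr7, a membrane progestin receptor, had 314, 519, 445 and 217 CPM and 40.1, 23.2, 40.7 and 47.5 CPM (-3.31 ± 0.37, adjusted p = 8.10e-06). Serpina3b, a protease inhibitor with close paralogs, had 29.004, 28.3, 17.5 and 30.3 CPM and 0.0963, 0.0795, 2.82 and 0.752 CPM (-4.74 ± 0.64, adjusted p = 1.79e-05), and without HFD_PMA replicate 3, the highest treated library, -6.54. With the covariate the call of Cyp2j8 (-1.28, adjusted p = 0.56) ended. The fit with the covariate gave -4.42 for Cyp2b23.

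At the other end, Uox, urate oxidase of purine breakdown (chr3:146570426-146632305), had 2 counts in all 4 controls together and 2210 in the 4 treated libraries, or 72.4, 69.3, 33.3 and 20.2 CPM. That is a CPM ratio of 960.2 (95% counting interval 266 to 7934), adjusted p = 1.12e-06. Both counts were in ND_cont replicate 2. Ankk1, a kinase gene next to the dopamine receptor gene Drd2, went from 3 to 704 counts, a CPM ratio of 204 (95% counting interval 69.5 to 991), adjusted p = 4.08e-07. Its 3 counts were all in ND_cont replicate 1. Teddm3, a gene of a little-known membrane protein, had the lowest adjusted p of all genes tested: 7.90, 8.99, 6.44 and 10.1 CPM in the controls and 137, 191, 156 and 138 CPM with both exposures (4.22 ± 0.18, adjusted p = 1.29e-11). Both groups were tight and did not overlap.

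Clock genes were lower in part: 11 of 19 fell and 1 rose (Bhlhe40), 4 and 0 kept, with a median of -0.63. The sources used here do not give the time of day at which ears were taken, so its part cannot be told apart from the exposures. Npas2, an activator of the clock, fell from 11.4, 10.9, 13.6 and 9.99 CPM to 2.98, 1.19, 1.64 and 2.76 CPM (-2.43 ± 0.33, adjusted p = 2.01e-05). The repressors Cry2 (-1.04 ± 0.13, adjusted p = 8.03e-06) and Nr1d1 (-0.85 ± 0.13, adjusted p = 8.11e-05) fell too. The output factor Hlf fell at -1.11 ± 0.25, adjusted p = 0.00232 and missed the threshold with the covariate (adjusted p = 0.0651). Clock, Per1, Cry1 and Dbp did not pass.

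Of 9 adipocyte markers 8 fell and 0 rose (2 kept), and their summed level was 523 to 749.8 CPM in the untreated ND libraries and 212 to 279.9 CPM in the HFD libraries with PMA, with no overlap. Adipoq, the fat cell hormone adiponectin, fell from 69.1, 92.4, 73.5 and 50.5 CPM to 17.6, 23.5, 31.4 and 25.3 CPM (-1.54 ± 0.22, adjusted p = 3.86e-05), and Cfd, adipsin, from 172 ± 27.7 CPM to 46.6 ± 10.8 CPM (-1.89 ± 0.29, adjusted p = 6.92e-05; -1.65, adjusted p = 0.0905 with the covariate). Of 9 cartilage markers 7 fell and 0 rose (5 kept), with summed levels of 356 to 519.5 CPM in the untreated ND libraries and 128 to 186 CPM in the HFD libraries with PMA. Col9a1, a collagen of cartilage, fell from 19.9, 38.3, 27.1 and 42.1 CPM to 8.47, 5.80, 9.47 and 8.02 CPM (-2.003 ± 0.25, adjusted p = 7.43e-06), and Col11a2 at -2.27 ± 0.37, adjusted p = 0.000116. Neither overlapped between groups. Skeletal muscle markers fell in 4 of 9 (3 kept), and their summed level was 5029 to 13529 CPM in the untreated ND libraries and 3975 to 4849 CPM in the HFD libraries with PMA, so that untreated ND libraries spread widely. Myh4, a fast myosin, had 667, 486, 1252 and 1132 CPM and 354, 252, 399.6 and 366 CPM (-1.37 ± 0.30, adjusted p = 0.00288). Fitted with the covariate, the log2 fold change was -2.49 for Myh4.

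Schwann cell markers fell in 4 of 5 (0 kept) and endothelial markers in 2 of 9, Kdr (-1.09 ± 0.27, adjusted p = 0.00461) and Vwf (-1.21 ± 0.27, adjusted p = 0.00254). Neither was kept: with the covariate Kdr had -1.75, adjusted p = 0.0506 and Vwf -1.14, adjusted p = 0.251. The part of tissue make-up in the lower matrix and lipid genes was not tested. Genes of the growing hair shaft and its inner sheath rose in 7 of 15 cases, but this rested on few libraries. Their summed level was 3.95 to 39.8 CPM in the untreated ND libraries and 56.4 to 3079 CPM in the HFD libraries with PMA, with HFD_PMA replicate 1 at 3079 CPM. HFD_cont replicates 1, 2, 3 and 4 stood at 2434, 1658, 69.7 and 585 CPM. Every HFD library, with or without PMA, was thus above every untreated ND library in this sum. Krt27, an inner root sheath keratin, had 0, 1.04, 0.865 and 4.04 CPM in the controls and 303, 7.63, 7.36 and 17.4 CPM in the treated libraries, and its log2 fold change fell from 5.81 (adjusted p = 0.0409) to 2.84 (adjusted p = 0.232) without HFD_PMA replicate 1. The call also ended without any 1 of the 4 controls. Vsig8 and Lyg2, named among the largest increases, followed the same library, with 47.9, 2.54, 1.80 and 1.63 CPM and 57.2, 3.74, 1.02 and 1.25 CPM. Vsig8 lost its call without that library (adjusted p = 0.1) and without any 1 of the 4 controls, and Lyg2 without ND_cont replicate 3 and without ND_cont replicate 4.

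**Figure D5:**
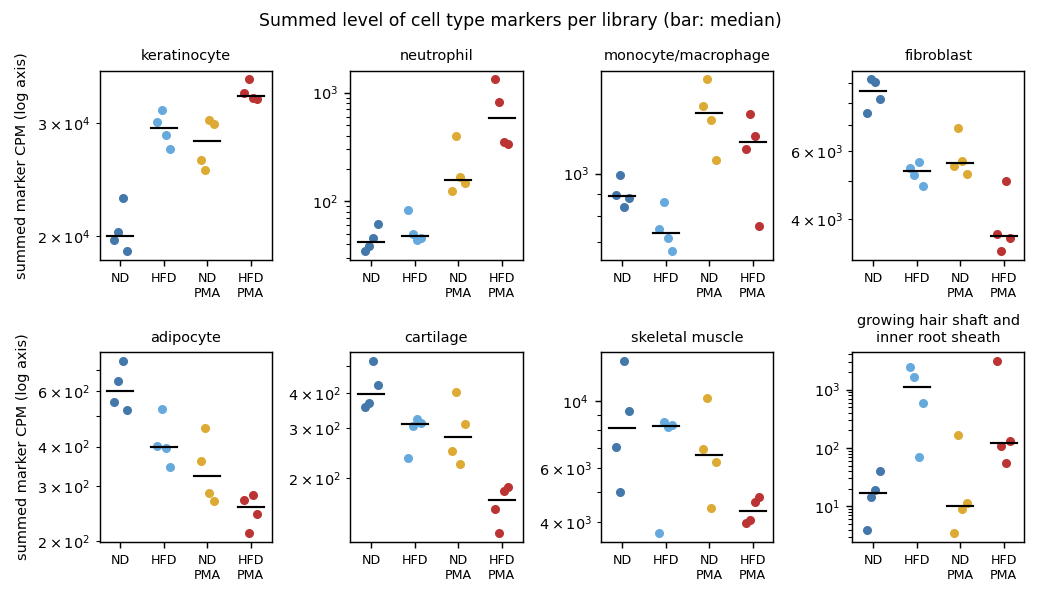
Summed CPM of the markers of 8 cell types per library (log axes) in untreated ND, untreated HFD, ND with PMA and HFD with PMA skin; bars are group medians. Keratinocyte and neutrophil sums are higher, and fibroblast, adipocyte and cartilage sums lower, in every HFD library with PMA than in every untreated ND library. The hair sum is also higher in every HFD library, with or without PMA, and by far the highest in single libraries of the HFD groups.

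The joint exposure was then set beside each exposure alone. All 3 comparisons use the same untreated ND libraries, so that their fold changes share the error of these controls. Departure from additivity is the joint log2 fold change minus the sum of those of HFD alone and PMA alone. Over the 17604 genes 1 (0.00568%) passed, Teddm3, and 815 had an unadjusted p below 0.05. DESeq2 called 22, and edgeR called 4 without ND_cont replicate 2 and 2 without ND_cont replicate 4, ND_PMA replicate 1 or HFD_PMA replicate 2. The median departure was -0.044. Teddm3 stood at 57.7 ± 12.6 CPM with HFD alone and at 91.3 ± 5.34 CPM with PMA alone. The log2 fold changes were 2.79 with HFD alone and 3.45 with PMA alone, and the joint change of 4.22 was less than their sum of 6.24 by 2.02 (departure -2.02 ± 0.23, adjusted p = 0.000538). A departure that misses the threshold does not show that the exposures add up. The SE of a departure was 0.82 for Krt16 and 0.23 for Scd1.

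Named genes differed in which exposure stood closer to the joint level. Over all genes 2101 (11.9%) differed between the joint group and HFD alone, and 387 (2.2%) between the joint group and PMA alone. The wound keratin gene Krt16 had log2 fold changes of 2.57 with HFD alone and 5.87 with PMA alone, against 6.50 with both, and the joint group did not pass against PMA alone (0.63 ± 0.57, adjusted p = 0.676). For the suprabasal keratin gene Krt1 they were 1.89 with HFD alone and 0.81 with PMA alone, against 2.33 with both. Here the joint group passed against PMA alone (1.52 ± 0.21, adjusted p = 0.00115) and not against HFD alone (0.44 ± 0.21, adjusted p = 0.196). The lipoxygenase gene Alox8 stood at 38.6 ± 18.1 CPM with HFD alone, 49.2 ± 37.1 CPM with PMA alone and 399.7 ± 131 CPM with both, above either alone (3.37 ± 0.62, adjusted p = 0.00337 against HFD alone and 3.02 ± 0.61, adjusted p = 0.0237 against PMA alone). The cystine importer gene Slc7a11 was likewise above either alone (2.61 ± 0.41, adjusted p = 0.000291 and 2.43 ± 0.40, adjusted p = 0.00378), with 14.03 ± 7.17 CPM, 15.9 ± 3.66 CPM and 85.8 ± 31.6 CPM. The cytokine gene Il1f6 had 37.4 ± 11.3 CPM with HFD alone, 27.5 ± 3.08 CPM with PMA alone and 67.3 ± 10.1 CPM with both, again above either (0.85 ± 0.23, adjusted p = 0.0182 and 1.29 ± 0.23, adjusted p = 0.0068). Alox8, Slc7a11 and Il1f6 did not pass for departure from additivity. Their levels above either exposure alone thus do not show that the exposures enhance each other.

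On the lower side, Cyp2e1 was below either alone, with 17.3 ± 6.05 CPM under HFD, 28.4 ± 10.04 CPM under PMA and 6.68 ± 0.828 CPM under both (-1.38 ± 0.27, adjusted p = 0.00181 and -2.09 ± 0.27, adjusted p = 0.00107). It did not pass for departure from additivity either. Col1a1 passed against PMA alone (-0.94 ± 0.23, adjusted p = 0.0345) and not against HFD alone (-0.49 ± 0.23, adjusted p = 0.194), and Krt15 the other way round (-0.48 ± 0.19, adjusted p = 0.201 and -1.54 ± 0.19, adjusted p = 3.44e-05). The mitotic gene Top2a passed against HFD alone (2.04 ± 0.22, adjusted p = 7.50e-06) and not against PMA alone (0.71 ± 0.21, adjusted p = 0.0844). Tslp was lower with both than with PMA alone (10.5 ± 4.63 CPM against 28.6 ± 5.39 CPM, -1.45 ± 0.36, adjusted p = 0.0365). A pass against one exposure and not against the other was not itself tested as a difference.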

How the data were processed

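RNA of mouse ear skin was made into SMART-Seq2 libraries from 2 ng per sample, per the labels' protocols. The authors deposited raw counts per gene for 16 libraries. STAR 2.3, featureCounts 1.5 and the mouse builds GRCm38 and mm10 are named in the submitters' processing notes. The sources used here do not give the strand setting or the release of the annotation. No column belonged to another sample (0), and 0 entries named no gene.

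The counts were analysed as deposited in R 4.3.3 with edgeR 4.0.16 and limma 3.58.1. Genes were filtered by filterByExpr (minimum count 10, minimum total 15), scaled by TMM and fitted with robust quasi-likelihood over 4 group means of all 16 libraries. P-values were BH-adjusted over all genes tested, and an SE is the absolute log2 fold change over the square root of F. Totals of 7739487 to 13126508 counts in the 8 libraries compared set the precision. Counting intervals are exact 95% intervals and cover counting error only, since reads carried no molecular identifiers that the sources used here name. Marker sums add the CPM of all listed markers, tested or not. The scripts were tested on simulated data.

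Genes were named by this rule: adjusted p below 0.05, a mean of 5 CPM or more in the 8 libraries, and groups that did not overlap, then the 12 largest increases and 12 largest decreases in log2 fold change and the 6 largest of each in mean CPM; for each list, the 4 (or fewer) members called with that mean CPM and the largest change, or the 2 with the smallest p where none was called; and the additivity calls with the smallest p. Other genes with values (such as Lcn2, Chil1, Klk6, Slpi, Gjb2, Krt10, Lor, Flg2, Il1rn, Mki67, Nr1d1, Hspa5, Fasn, Ldha, Fos, Jun, Egr1, Egfr, Hmox1, Il19, Il24, Cxcl3, Timp3, Alox12b and Cd207) were chosen after their values were seen. Some genes that the rule named are not reported here. The comparison, the 28 gene lists and the marker lists were chosen with earlier results of these data known. Positions of 170 named genes come from GENCODE M21 (GRCm38) by gene ID. Of these 33 share exon bases with another gene, 26 of them only on the opposite strand (among them Krt6a, Krt6b, Krt5, Krt10, Il1b, Junb, Top2a, Eln and Cry2), and counts of near-identical families (Sprr2, Serpina3, Stfa, Scd) are uncertain. A symbol with several gene IDs (113 symbols) was taken from the ID with most counts.

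Alternatives were RLE and upper-quartile scaling, DESeq2 1.42.0, no filter, a filter of 5 CPM in 4 libraries, a replicate block, the library ID series as a covariate, the 8 libraries alone, mitochondrial genes left out, and each library left out.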

Additional observations from a re-analysis of the deposited data

Results flagged for a closer look

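In groups of 4 libraries, single libraries that stood far from the other 3 were sought by Dixon's test (gap over range above its 95% critical value). It was run on log2(CPM + 0.1) of the genes with values and of the summed markers of each cell type. Of 328 groups examined 19 held such a library. In 7 of the 19 (Ankk1, Cxcl5, Lyg2, Saa3, Sprr2f, Stfa1 and Uox) the other 3 libraries were at 0 counts, so that any read in the remaining one meets the criterion, and these are given as values only. The other 12 are fewer than the about 5% of the 328 groups that chance alone gives, so they too are given as values only.

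ND_cont replicate 4 was high for Krt6a (170.1 CPM against 33.3 to 43.9 in the other controls), Krt6b (110.3 against 2.08 to 3.94) and S100a9 (3.928 against 0.370 to 0.568). It alone among the controls held counts of Cxcl5 (1.683 CPM), Saa3 (0.4489), Stfa1 (0.3366) and Lyg2 (0.1122).

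ND_cont replicate 1 was low for Nfkbiz (23.08 CPM against 48.7 to 55.4) and Thrsp (12.34 against 22.3 to 23.7), and alone held counts of Ankk1 (0.3703 CPM). ND_cont replicate 2 alone held counts of Uox (0.1892 CPM) and Sprr2f (0.0946 CPM). ND_cont replicate 3 was high for Eln (234.9 CPM against 134.7 to 140.4) and Krt5 (3456 against 2369 to 2481) and low for Serpina3b (17.49 against 28.3 to 30.3).

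Among the HFD libraries with PMA, replicate 4 was low for Junb (281.6 CPM against 356.6 to 365.8) and Hmox1 (98.05 against 127.7 to 132.3) and high for Ptges (233.7 against 212 to 213). Replicate 1 was high for Vsig8 (47.95 CPM against 1.63 to 2.54).

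Teddm3 was the single gene whose joint change differed from the sum of the changes with each exposure alone by edgeR's quasi-likelihood test, with a departure of -2.018 on the log2 scale. Its PMA effect was thus smaller in HFD skin than in ND skin, and its level was higher with both exposures than with either alone.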

How the results depend on the processing

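The count of genes called stayed within 1.5 times of 4535 under each alternative but one: with the library ID series as a covariate 1239 genes were called, 817 higher and 422 lower, 1083 of them at 2-fold or more. That fit rests on the 4 untreated HFD libraries, the group that holds both series, where only replicate 1 is RHS. The other counts ran from 4014 with no filter on low counts to 5042 with DESeq2, and from 3600 (without HFD_PMA replicate 2) to 4245 with 1 library left out. Upper-quartile scaling moved the split from 2542 higher and 1993 lower to 2218 and 2324, and the median of all genes from -0.041 to -0.099 on the log2 scale.

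The 1 departure from additivity became 22 with DESeq2, and 2 each with no filter, with the filter of 5 CPM, with the replicate block and with the covariate. Leaving out 1 library gave 1 to 4. The cause was not tested.

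Same-numbered ND_cont and HFD_PMA libraries did not deviate together (correlations of -0.064, -0.011, 0.012 and -0.045). These groups differ in diet, and whether the numbers pair libraries within a diet was not tested. With the replicate block 4316 genes were called, 2395 higher and 1921 lower, 1833 of them at 2-fold or more.

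Of 198 genes followed 180 were called. With the covariate 74 of these missed the threshold and 3 turned: Fosl1 to -0.69, Tslp to -0.045 and Pdk4 to -0.73 on the log2 scale. The cause was not tested. Under each other alternative 0 to 15 missed the threshold and 0 turned. Leaving out ND_cont replicate 4 moved the fold change of 12 genes by over 1.5 times, of 145 with values, and HFD_PMA replicate 1 that of 7. Depth limits genes under about 1 CPM, which stands for 7.74 to 13.1 counts before the TMM factor is applied.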

Other observations

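Smooth muscle cells and pericytes of the vessel wall were not described above. Of 6 smooth muscle and pericyte markers 1 rose and 3 fell, with a median log2 fold change of -0.67 and a summed level of 388 to 721 CPM in the untreated ND libraries and 327 to 357 CPM in the HFD libraries with PMA. Acta2, the smooth muscle actin that activated fibroblasts also make, rose from 28.8, 23.7, 27.1 and 16.05 CPM to 50.8, 39.4, 42.4 and 32.5 CPM (0.79 ± 0.22, adjusted p = 0.00993 by edgeR's quasi-likelihood test). Rgs5, a pericyte marker, fell from 102, 107, 107 and 115 CPM to 61.2, 44.9, 77.4 and 55.2 CPM (-0.86 ± 0.22, adjusted p = 0.00655). Neither gene overlapped between groups, and both missed the threshold with the library ID series as a covariate (adjusted p = 0.364 and 0.108).

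Melanocyte markers summed to 45.7 to 89.8 CPM in the untreated ND libraries and 29.5 to 122 CPM in the HFD libraries with PMA, and red blood cell genes to 49.6 to 98.6 CPM and 55.7 to 159 CPM. B cell markers summed to 1.54 to 2.84 CPM and 1.06 to 4.46 CPM, and eosinophil markers to 0.337 to 3.94 CPM and 0.878 to 14.1 CPM. The ranges of both groups overlapped for each of these 4 cell types.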
